A study of Drosophila melanogaster with 3 samples.

Results

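The Notch pathway core genes described here are 10 genes of Drosophila melanogaster, chosen by name: N, Dl, Ser, fng, kuz, neur, numb, Su(H), H and mam. They were examined for where BtbVII, a protein with a BTB domain, was found on chromatin by chromatin immunoprecipitation and sequencing (ChIP-seq). The libraries came from whole embryos aged 0 to 24 h, males and females pooled, of 1 transgenic line that carries BtbVII with GFP at its C terminus, and the fusion was pulled down with an antibody to GFP. The 3 libraries are biological replicates 1, 2 and 3 of a single group, and no group of control samples was analysed here, so values are compared between genes and between replicates. The labels give no promoter or cell type for the transgene. Whole embryos hold every tissue, so binding in few cells and weak binding in many cannot be told apart. The authors ranked 30000 candidate regions on the pooled replicates, each with a summit and a signal value. They kept 5219 of them as the optimal set by a test of reproducibility between replicates (the irreproducible discovery rate, IDR). Those 5219 are also the 5219 of highest pooled signal, with a minimum of 172.4, and they are called strong here. Being strong did not require agreement in every library. Of the 5219 strong summits, 4972 (95.3%) lay in a region of every replicate list. A summit belonged to a gene when it lay in the gene body or within 1000 bp of it. By that rule the 10 genes, of 13945 protein-coding genes on the chromosome arms, held 116 candidate summits, 17 of them strong. The current gene models name Dl as Delta, and it was matched through its RefSeq synonym.

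Notch signalling passes information between touching cells and sorts neighbouring cells into different fates, as when neural precursors are picked out of the embryonic ectoderm. The receptor N is met by the ligand Dl or Ser on the next cell, is cut outside the membrane by the metalloprotease kuz and then within it by gamma-secretase, and its intracellular part moves to the nucleus. There it joins the DNA-binding protein Su(H) and the co-activator mam to switch target genes on, while H holds Su(H) in a repressor complex when the signal is off. The glycosyltransferase fng changes which ligand the receptor responds to, the ubiquitin ligase neur drives uptake of the ligands in the sending cell, and numb lowers signalling in 1 daughter of an asymmetric division.

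The sequences under the strong intronic summits of N, numb, neur and kuz are shown so that the letters at these summits can be read beside their values. At N, numb and neur they include the summit of highest pooled signal in the gene, and at kuz the one shown is the weakest of its 3 strong summits. Each is 101 bases centred on the pooled summit, on the plus strand of the Release 6 genome sequence (dm6). The positions are chrX:3162464-3162564 for N, chr2L:9449634-9449734 for numb, chr3R:9033959-9034059 and chr3R:9031963-9032063 for neur, and chr2L:13571080-13571180 for kuz. Capitals mark matches to CACACA or to its reverse complement TGTGTG, which were among the letters searched below. The strong intronic summits of mam are not shown, and no strong mam summit had such a match within 100 bp.
N intron: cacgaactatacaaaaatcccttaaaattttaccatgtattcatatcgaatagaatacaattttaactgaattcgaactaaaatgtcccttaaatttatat
numb intron: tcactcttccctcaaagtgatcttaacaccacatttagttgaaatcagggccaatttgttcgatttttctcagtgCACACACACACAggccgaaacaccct
neur intron 1: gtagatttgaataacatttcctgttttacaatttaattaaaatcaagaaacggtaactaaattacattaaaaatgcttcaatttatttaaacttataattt
neur intron 2: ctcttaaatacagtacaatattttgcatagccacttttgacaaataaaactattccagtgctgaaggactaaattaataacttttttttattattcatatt
kuz intron: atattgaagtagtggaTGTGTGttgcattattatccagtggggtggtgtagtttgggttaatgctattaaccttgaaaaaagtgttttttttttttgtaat
The neur sequence named intron 1 lies under the stronger of its 2 intronic summits. Over 201 bases around the summit, G and C made up 33.8% in N, 44.8% in numb, 21.4% in neur intron 1, 34.8% in neur intron 2 and 32.8% in kuz.

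Strong BtbVII summits were found at the receptor N, at the co-activator mam, at the inhibitor numb, and at the neur and kuz genes, whose products act on ligand and receptor. None was found at either ligand gene, at fng, or at Su(H) and H, whose products form the DNA-binding side of the pathway. Thus 5 of 10 core genes held at least 1 strong summit (exact 95% interval 18.7 to 81.3%), against 29.1% of all protein-coding genes. At least 1 candidate of any strength lay at 8 of 10 core genes, against 61.6% of all genes. Intervals here are Clopper-Pearson and cover counting error only, and those over summits treat the summits of a gene as independent. Within 1000 bp of an annotated transcription start site (TSS) of the gene itself, 4 of 10 core genes held a strong summit, against 22.4% of all genes, since the N summit lies far from the N start.

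The core genes are long, and a long gene holds more places for a summit. Their median body length was 23.6 kb, against 2.17 kb for all protein-coding genes. Among genes of 30 kb and over, all 3 core genes (kuz, mam and N) held a strong summit, against 63.3% of genes of that length. Among genes of 10 kb to under 30 kb, 2 of 5 core genes (numb and neur, not Dl, Ser or fng) held one, against 56.2%. Under 10 kb, 0 of 2 (Su(H) and H) held a strong summit, against 24.2%, and 0 of 2 held any candidate, against 56.8%. These shares rest on 3, 5 and 2 core genes, and no test was made of them.

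**Figure D1:**
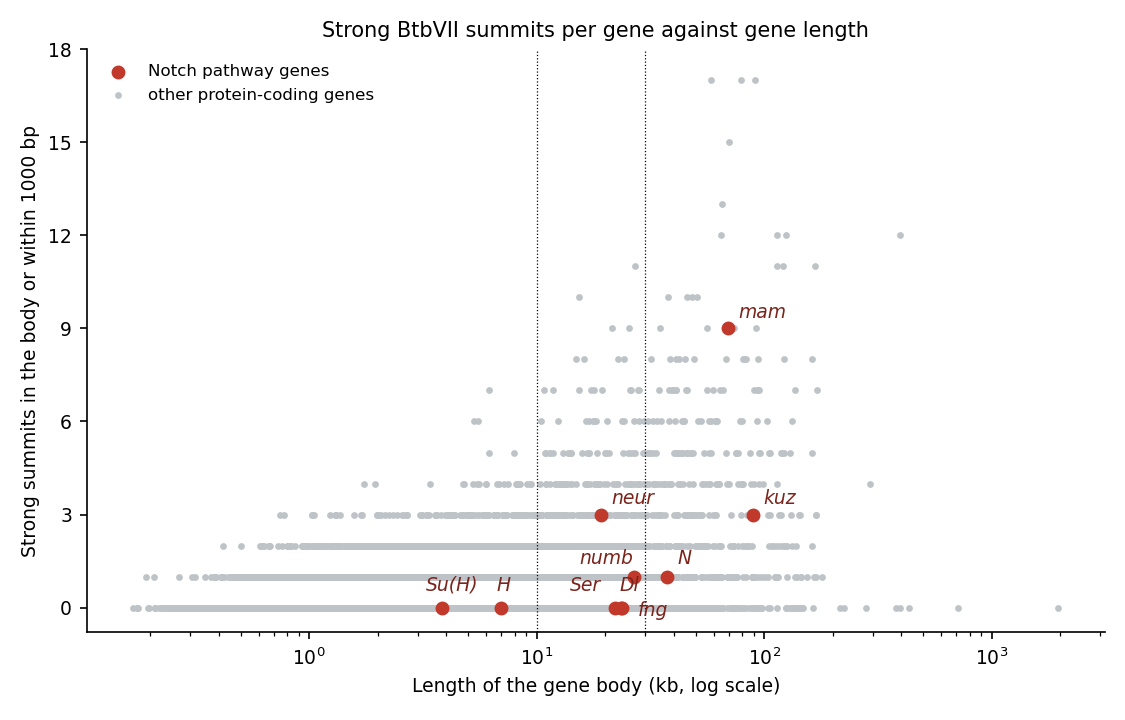
Strong BtbVII summits per gene (y axis, count in the body or within 1000 bp) against the length of the gene body (x axis, kb, log scale); red points are the 10 Notch pathway core genes, grey points the other protein-coding genes, and dotted lines mark 10 and 30 kb. The mam point, with 9 strong summits at 69.2 kb, lies high among genes of its length, while N, with 1 at 37.4 kb, is at the median of its class, which is 1.

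The receptor gene N (FBgn0004647, chrX:3134870-3172221, plus strand, 37.4 kb) held 14 candidates, of which 1 was strong. That summit lay in an intron, 27644 bp downstream of the only annotated N start, in a region at chrX:3162289-3162738. Its pooled signal was 470.3, rank 869 of 30000. The region that holds it had ranks 1133, 669 and 1194 in replicates 1, 2 and 3, so each library placed it in the first 1194 of its list. The signal values were 161.5, 225.1 and 83.65 in replicates 1, 2 and 3, on scales that differ between lists. The N start itself carried weaker candidates. The summit 182 bp downstream of the start, in the 5′ UTR, had a pooled signal of 127.1 and ranked 4490, 12085 and 27115 in replicates 1, 2 and 3, a wide spread. The one 397 bp upstream had 129.9 and lay within the body of kirre, a neighbouring gene. The N candidate nearest below the strong limit, in an intron 22688 bp from the start, had 154.8.

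Neither ligand gene reached the strong limit. At Dl (FBgn0000463, chr3R:19302731-19326217, minus strand, 23.5 kb) there were 5 candidates, and the highest, 25 bp downstream of the start in the 5′ UTR, had a pooled signal of 120.9 at rank 9066. Its region had ranks 6588, 10864 and 10515 in replicates 1, 2 and 3. All 3 ranks lie outside the first 5219 places. The other Dl candidates had pooled signals of 53.14 to 64.77.

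At Ser (FBgn0004197, chr3R:27172090-27194267, minus strand, 22.2 kb) there were also 5 candidates, and again the highest sat at the start of the gene, 11 bp from the first TSS, with a pooled signal of 97.68 at rank 12512. Its region ranked 15850, 14038 and 28296 in replicates 1, 2 and 3. At both ligand genes, then, the candidate of highest pooled signal was at the start and below the strong limit. At Ser that order did not hold in every library, since an intronic candidate ranked 13425 in replicate 2 and another ranked 16449 in replicate 3, both above the start.

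Of the genes whose products act on the receptor and its ligands, fng (FBgn0011591, chr3L:20925891-20949512, minus strand, 23.6 kb) came close to the limit without reaching it. It held 8 candidates. The highest, 640 bp upstream of the fng start, had a pooled signal of 150.5 at rank 6513, and its region ranked 7703, 7656 and 8212 in replicates 1, 2 and 3. These ranks are close to each other, and all 3 lie outside the first 5219. The TSS nearest to that summit is 631 bp away and belongs to the non-coding gene lncRNA:CR45243.

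The gene of the metalloprotease, kuz (FBgn0259984, chr2L:13550139-13639411, plus strand), is the longest of the 10 at 89.3 kb and held 14 candidates, 3 of them strong. At least 3 strong summits were held by 30.2% of genes of 30 kb and over. The strongest of the kuz summits, at chr2L:13548989-13549438, had a pooled signal of 276.2 and ranked 2812, 3003 and 2341 in replicates 1, 2 and 3. It lay 925 bp upstream of the kuz start, but inside the gene B4 and 114 bp from the B4 start, so the list cannot say to which of the 2 genes it belongs.

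The other strong kuz summits varied more between libraries. The one at chr2L:13549939-13550388, 25 bp downstream of the kuz start in the 5′ UTR, had a pooled signal of 209.9 and had ranks 2200, 4953 and 28500 in replicates 1, 2 and 3. It was thus near the bottom of the list of replicate 3, where its signal was 15.78, against 114.4 in replicate 1 and 77.03 in replicate 2. The third, in an intron 20991 bp from the start (chr2L:13570905-13571354), had 184.0, just inside the limit, and ranked 4480, 8538 and 3580. Beyond that summit, over the remaining and greater part of its length, kuz held no strong summit.

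The gene of the ubiquitin ligase, neur (FBgn0002932, chr3R:9020348-9039471, minus strand, 19.1 kb), held 10 candidates, 3 of them strong. Among genes of 10 kb to under 30 kb, 16.2% held at least that many. Its strong summits came to 1.42 per 10 kb of gene and flanks, against 0.642 over all genes of that length class. The strongest neur summit, at chr3R:9033784-9034233, had a pooled signal of 548.0 and ranked 393, 835 and 1054 in replicates 1, 2 and 3. It lay 278 bp upstream of the second, internal neur start, which is 5.74 kb from the first. The next, at chr3R:9031934-9032109, had 508.1, ranked 712, 731 and 1280, and lay in an intron 1718 bp downstream of the internal start.

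Both intronic neur summits were among the first 1280 regions of every replicate, unlike the summit at the first neur start. That one, 133 bp upstream (chr3R:9039379-9039828), had 176.8, the lowest of the 17 strong values. It fell in no region of the replicate 1 list, and its rank was 3091 in replicate 2 but 5866 in replicate 3. It also lies inside hyx, which encodes the fly parafibromin, a subunit of the Paf1 transcription complex.

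The gene of the inhibitor, numb (FBgn0002973, chr2L:9437469-9464184, plus strand, 26.7 kb), held 11 candidates, and its single strong summit was the second highest of the 17. Its region, chr2L:9449554-9449765, had a pooled signal of 711.2 at rank 370. It ranked 320, 388 and 513 in replicates 1, 2 and 3, with signals of 295.0, 297.6 and 126.3, so the 3 libraries placed it alike. It lay 146 bp upstream of the internal numb start, 12.4 kb from the first start. At the first start the nearest candidate, 128 bp downstream, had only 129.9 and ranked 8152, 10859 and 11572. In numb, as in neur, the higher signal was thus at the internal start and not at the first one. At mam the order was the other way, with 266.8 near the first start and 235.0 near the first internal start.

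**Figure D2:**
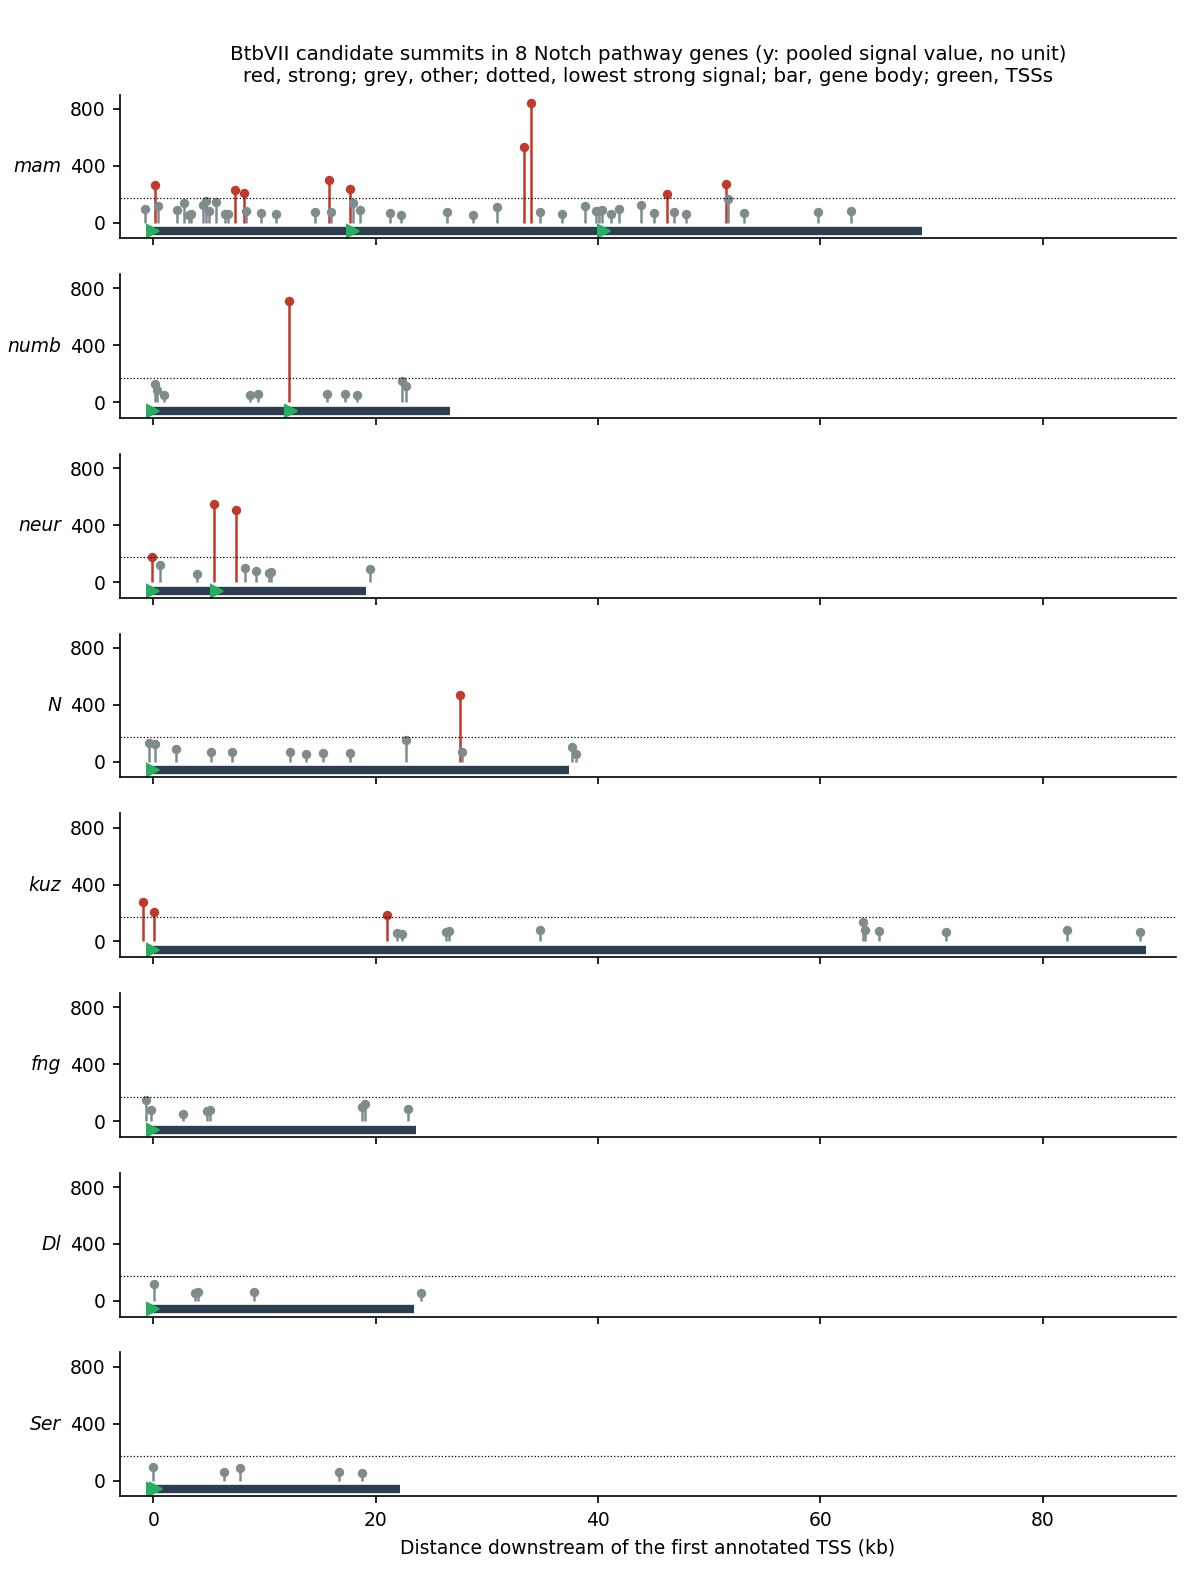
Candidate BtbVII summits along the 8 core genes that hold any: x axis, distance downstream of the first annotated start in kb; y axis, pooled signal value (no unit); red, strong summits; grey, other candidates; the dotted line is the lowest strong signal (172.4), the bar the gene body and green arrowheads the annotated starts. In mam strong summits run along much of the gene and peak at 33.3 and 34.0 kb, in numb and neur the highest ones stand just upstream of an internal start, and in fng, Dl and Ser no summit reaches the line.

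The nuclear genes ran from no candidate at all, at Su(H) and H, to the highest count of the 10, at mam. The Su(H) gene (FBgn0004837, chr2L:15039488-15043334, plus strand, 3.85 kb) had no candidate summit in its window, and none of the 3 replicate lists had a summit there either. The nearest candidate lay 11.6 kb from the gene body with a pooled signal of 59.12, and the nearest strong summit 13.5 kb away (318.0, rank 1818), 987 bp from the start of ck, a myosin gene. The corepressor gene H (FBgn0001169, chr3R:20621938-20628915, plus strand, 6.98 kb) also had no summit in its window in the pooled list or in any replicate list. Its nearest candidate, a strong one of 338.2 at rank 1627, lay 5.32 kb from the body and 500 bp from the start of Pi3K92E, which encodes a phosphoinositide 3-kinase subunit. An empty window means that no region there was among the listed 30000; depth is unknown, so weaker binding was not measured.

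The co-activator gene mam (FBgn0002643, chr2R:13991203-14060356, plus strand, 69.2 kb) held 49 of the 116 candidates (42.2%) and 9 of the 17 strong summits (52.9%), so counts of summits over the core genes are to a large part counts of mam. Among genes of 30 kb and over, 3.17% (21 of 663) held at least 9 strong summits. Its strong summits came to 1.26 per 10 kb of gene and flanks, against 0.31 over all genes of that length class. At least that density was reached by 6.18% (41 of 663) of the class, whose median length is 48.4 kb. In the replicates' own lists, mam held 11, 9 and 7 of the first 5219 regions in replicates 1, 2 and 3, and each of these counts was above that of any other core gene, the highest of which was 4, for neur in replicate 2.

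The 2 highest mam summits stood 698 bp apart in an intron. The higher, at chr2R:14024964-14025321, had a pooled signal of 840.3 at rank 264 and ranked 183, 307 and 254 in replicates 1, 2 and 3, with signals of 385.0, 326.9 and 170.1. The other, at chr2R:14024463-14024687, had 529.4 at rank 691 and ranked 807, 558 and 439. Both were thus among the first 807 regions of every library. The start nearest to the higher one, 3413 bp away, is that of CG18371, a gene nested in mam, and the nearest mam start is 6456 bp away. In the pooled list its neighbours in rank were, above it, regions whose nearest starts are those of Hmg-2 (841.5, 211 bp away) and tara (841.4, 4995 bp away), and below it those of CG42327 (839.4, 683 bp away) and CG3792 (834.6, 95 bp away).

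The third mam summit by signal, at chr2R:14006747-14007196, had 298.3 and ranked 1562, 2354 and 6432, with the start of mir-4978, a microRNA gene, 966 bp away. The other 6 ran from 200.1 to 274.6. One lay 187 bp downstream of the first mam start (266.8), one 273 bp upstream of the first internal start (235.0), and the other 4 in introns 5768 to 11038 bp from any mam start. Around the last mam start, at 40.5 kb, the nearest strong summit was 5768 bp away. Of the mam candidates that were not strong, the highest had 167.0, just outside the limit, and was followed at the 10 genes by 154.8 in N and 150.5 upstream of fng. Just inside the limit were the neur summit of 176.8 and the kuz summit of 184.0. The mam candidate of 167.0 is not a separate place: its region overlaps that of the strong mam summit of 274.6. In replicates 1 and 2 the same region (ranks 1920 and 3260) holds both summits.

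Ordered by the highest pooled signal, the genes ran mam (840.3), numb (711.2), neur (548.0), N (470.3), kuz (276.2), fng (150.5), Dl (120.9) and Ser (97.68). The best rank in each replicate's own list gave nearly the same order. The first and second places were mam and numb in every replicate, with best ranks of 183 and 320 in replicate 1, 307 and 388 in replicate 2, and 254 and 513 in replicate 3. The neighbours neur and N changed places in replicate 2, where N ranked 669 and neur 731, and fng and Dl changed places in replicate 1, where Dl ranked 6588 and fng 6984. Those pairs are therefore not separated beyond the spread between replicates, and Ser was last of the 8 in every replicate.

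Across the 17 strong summits, 11 lay in regions among the first 5219 of all 3 replicate lists (64.7%, interval 38.3 to 85.8), against 58.9% of all strong summits. Another 4 were there in exactly 2 replicates and 2 in exactly 1. By replicate, 16, 15 and 12 of the 17 were in the first 5219 of replicates 1, 2 and 3, against 84.3%, 84.2% and 75.7% of all strong summits. The strong set was made from these same 3 replicates, so high places in their lists are partly built in, for all strong summits alike. The 6 that were not in all 3 were 3 of mam, 2 of kuz and the one at the first neur start. The position of the summit differed between a replicate and the pool by a median of 11 bp (range 0 to 136, 50 values). Only replicate regions that hold the pooled summit were compared, so larger distances could not be seen.

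**Figure D3:**
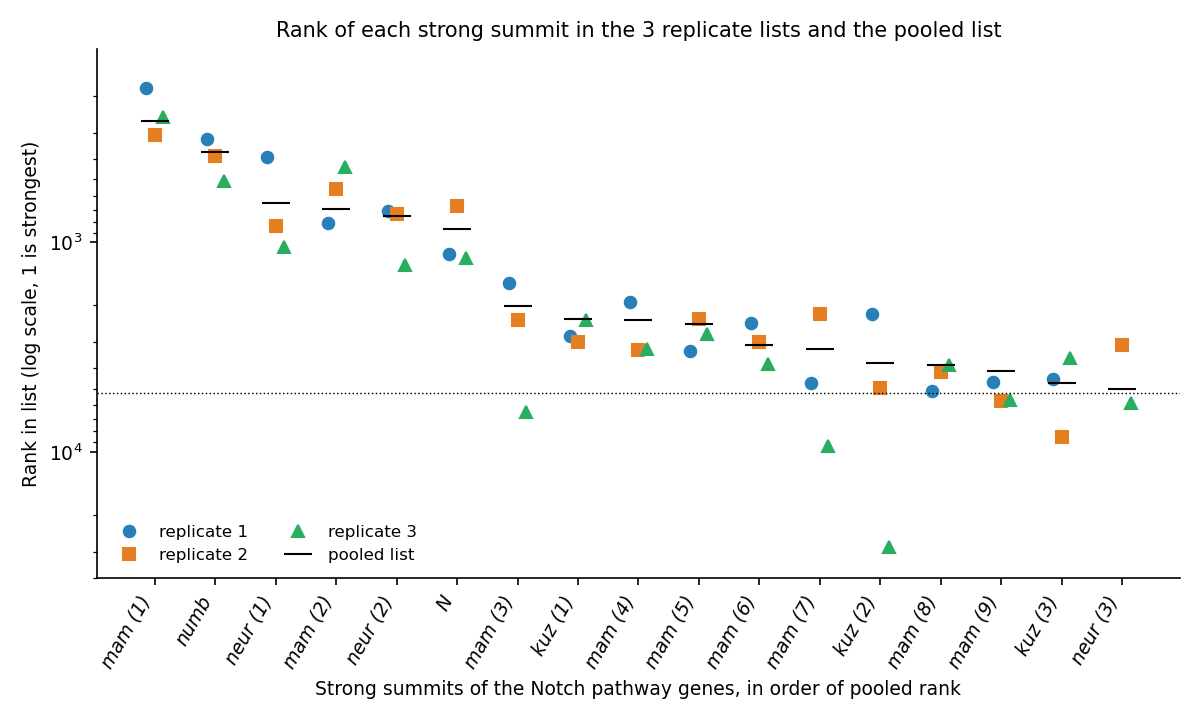
Rank of the 17 strong summits of the core genes (x axis, in order of pooled rank) in the list of each replicate and in the pooled list (y axis, log scale, rank 1 at the top); the dotted line is rank 5219, and the number after a gene name counts its summits from the strongest. The 6 summits of highest pooled signal rank between 183 and 1280 in all 3 replicates, and the marks spread apart further right, with a replicate 3 rank of 28500 at the second kuz summit and no replicate 1 mark at the third neur summit.

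The strong summits of the core genes were mostly intronic. Of the 17, 13 lay in introns (76.5%), 2 in 5′ UTRs and 2 upstream. Of the 99 other candidates at these genes, 82 lay in introns (82.8%). The intron share of all strong summits was not counted, so whether these long genes differ from others in it was not tested. The intronic summits include those of numb, mam and neur that lay 146, 273 and 278 bp upstream of an internal start. Within 500 bp of a start of any gene lay 7 of 17 strong summits (41.2%, interval 18.4 to 67.1), against 49.4% of all strong summits. Strong summits made up 14.7% of the candidates at the core genes (17 of 116, interval 8.78 to 22.4), against 17.4% of all pooled candidates and 18.8% of those in the window of any protein-coding gene. The core genes' strong summits had a median pooled signal of 274.6 (176.8 to 840.3), against 258.0 (172.4 to 3723.7) for all strong summits. The intervals of the share near a start and of the strong share hold the values for all summits. Both count summits as independent, although 9 of the 17 strong summits and 49 of the 116 candidates lie in mam. They are therefore not a test of a difference.

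The letters around the summits were searched on both strands within 100 bp, as a description. GAGAG, letters bound by GAGA factor, another BTB protein of Drosophila, was present at 3 of 17 core gene strong summits (17.6%), against 27.8% of all strong summits and 24.1% of other candidates. The 3 were 2 of mam and the one of numb. The longer GAGAGA, which contains GAGAG, was present at 1 of 17 (5.88%), a mam summit, against 13.5% and 10%. The direction turned with the window: within 250 bp, GAGAG was at 70.6% of core gene strong summits, against 57.7% of all strong summits, and GAGAGA at 35.3%, against 31.6%. CACACA was present at 4 of 17 (23.5%), against 18.6% and 20.2%: at numb, where 4 overlapping matches form the run shown in capitals above, and at all 3 strong kuz summits. TATCGATA was at 0 of 17, against 1.99% and 1.12%. Of the core letters bound by Su(H), GTGGGAA was at 0 of 17, against 1.95% and 2.67%, and GTGAGAA at 1 of 17 (5.88%), against 2.49% and 2.07%. That match lay 32 bp from the summit in the kuz 5′ UTR. Within 250 bp, GTGGGAA was at 5.88% of core gene strong summits, against 6.19% of all strong summits, and GTGAGAA at 17.6%, against 6.3%. With 17 windows, 9 of them in 1 gene, these shares have wide intervals (6.81 to 49.9% for CACACA), and a match is a run of letters, not a site.

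G and C made up 35.8% ± 9.39 (SD, n = 17) of the 201 bases around the core genes' strong summits, against 37.7% ± 8.16 around all strong summits and 40.6% ± 8.11 around other candidates. The range over the 17 was wide, with 21.4% at the summit upstream of the internal neur start and 56.2% at the one upstream of kuz.

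Beyond the core, 28 other genes of the pathway were examined in the same way, from a list by role. Of these, 11 held a strong summit (39.3%, interval 21.5 to 59.4), against 29.1% of all protein-coding genes, and 20 held a candidate (71.4%), against 61.6%. These shares were not matched for gene length, and the 28 genes run from 0.532 kb (Brd) to 125.6 kb (Fur1). Over all genes the share with a strong summit was 24.2% under 10 kb, 56.2% from 10 to under 30 kb and 63.3% above. Whether the list differs from genes of like length was not tested. Among nuclear partners, nej, the acetyltransferase CBP that serves as a co-activator, had a highest pooled signal of 968.6 (rank 190), gro, the corepressor Groucho, 784.4 (rank 299), and CtBP, the corepressor that H recruits, 241.3 (rank 2951). The gro summit lay in an intron 144 bp from its start and ranked 291, 308 and 355 in replicates 1, 2 and 3. The nej summit lay 681 bp upstream of nej, and the start nearest to it, 442 bp away, is that of the non-coding gene lncRNA:CR42657. The CtBP summit, in an intron, ranked 5554, 1830 and 5056, outside the first 5219 in replicate 1.

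Of the proteases, Fur1, a furin-type protease, had 910.1 (rank 217) 211 bp from its start, and aph-1, a gamma-secretase subunit, 645.6 (rank 463) at a place 166 bp from the start of its neighbour Snx21. The catalytic subunit gene Psn, and nct, of the same complex, held no candidate. In trafficking and ubiquitination, l(2)gd1, an endosomal sorting gene, had the highest signal of the list, 1025.5 (rank 166), 65 bp from its start, with ranks of 179, 132 and 244 in replicates 1, 2 and 3. Then followed bib (378.7), a channel-family protein needed in neurogenesis, aux (361.9), the clathrin uncoating factor auxilin, dx (351.7) and Nedd4 (318.9), both ubiquitin ligases. The dx summit lay inside RpL7A, 27 bp from the start of that ribosomal protein gene. The aux summit, in an intron, lay 4113 bp from the nearest aux start but 582 bp from the start of CG14636. The bib summit, 302 bp from the bib start, lay inside the non-coding gene lncRNA:CR13130. Among numb partners, Nak, the Numb-associated kinase, had 471.6 (rank 867) and 5 strong summits in 11.0 kb. The Bearded family genes Tom, Brd and BobA, whose products inhibit neur, held no candidate, nor did rumi, insv and Hey.

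**Figure D4:**
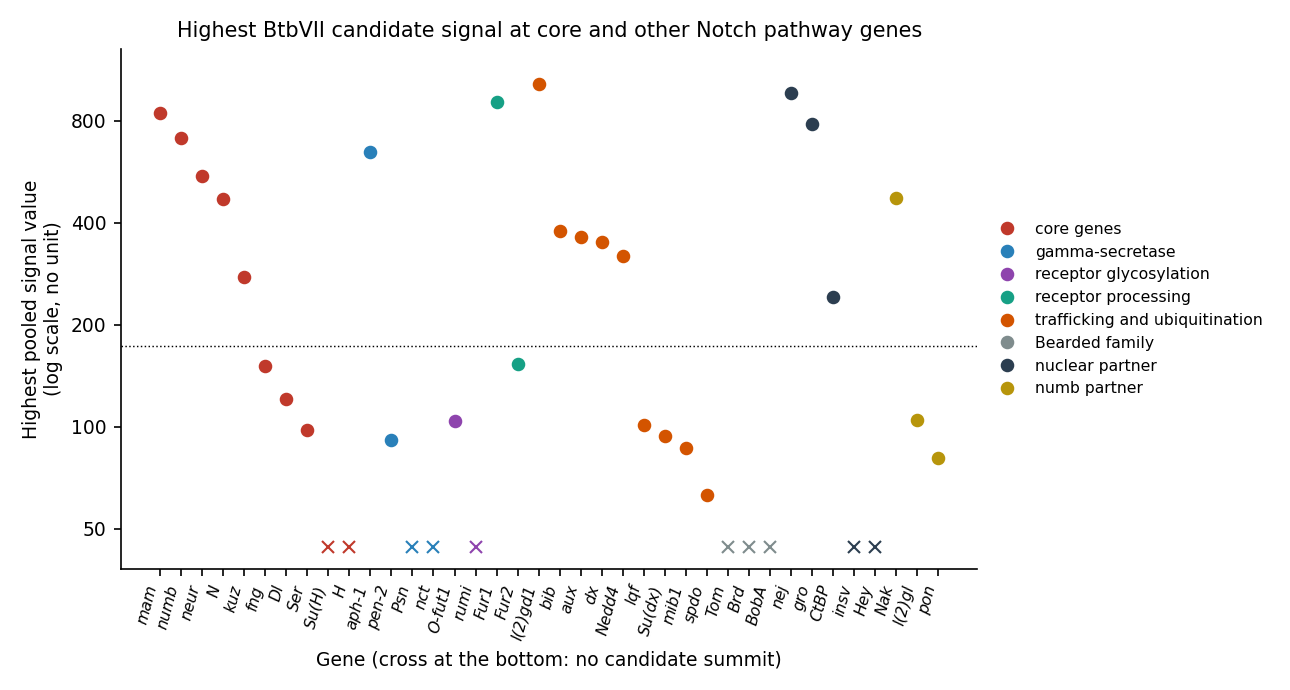
Highest pooled signal value (y axis, log scale, no unit) at each of the 10 core genes (red, left) and the 28 other Notch pathway genes, coloured by role; the dotted line is the lowest strong signal (172.4), and crosses at the bottom are genes with no candidate summit. Of the core genes 5 lie above the line, with mam highest at 840.3, and of the others 11, with l(2)gd1 highest at 1025.5.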

How the data were processed

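BtbVII ChIP-seq of 3 embryo libraries was read from region lists in narrowPeak layout on dm6. In each list the authors gave every region a signal value, used here as a score to rank within a list only, since its scale differs between lists, and a deposited −log10 q-value, which was not used. The deposited pooled and replicate lists hold 30000 regions each, so their length is a setting, and the optimal IDR list holds 5219. Per the deposited file notes each list came from the replicates' alignments and 1 other alignment, presumably of the control. Aligner, peak caller and IDR threshold were not given in the sources used here, and the depth is unknown. Lists on dm3 were not used.

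Summits were placed on Ensembl release 115 gene models (BDGP6.54) with Python 3.11.15, numpy 2.4.6, pandas 2.3.3 and scipy 1.17.1, and plotted with matplotlib 3.10.9; the counter was tested on simulated data. A replicate's rank at a summit is that of its highest region holding that position. The genes, lists and letters searched were chosen with earlier results of these data known, so no test was made and no p-value is given. All core genes were named, with each strong summit, or for more than 4 the 3 highest in full, and every gene of the wider list with a strong summit. Its 29 entries matched 28 genes.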

Additional observations from a re-analysis of the deposited data

How the results depend on the processing

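The number of core genes with a strong summit was 5 under every alternative tried except the count within 1000 bp of a TSS of the gene, where it was 4 because N dropped out. Strong summits at the core genes, 17 in the main count, came to 7 within 1000 bp of a TSS, to 10 in the 2609 strong regions of higher signal, and to 11 when the first 5219 places of all 3 replicate lists were required. Requiring the first 5219 places of only the remaining replicates, with each replicate left out in turn, gave 11 to 14 summits. The strong set itself was still the one made from all 3 replicates, so these counts could only fall from 17. Counting the gene body only gave 7 genes of the wider list (11 in the main count) and 2036 protein-coding genes (4057 in the main count), and the 2609 regions of higher signal gave 2487 protein-coding genes. The other counts stayed within 1.5 times the main one. The strong share of the core genes' candidates was 14.2% with the gene body only and 14.2% with 2000 bp added. Letter shares moved with the window: CACACA was at 17.6% of core gene strong summits within 50 bp, against 8.58% of all strong summits, and at 58.8% within 250 bp, against 44.9%. No paired analysis was possible because there is 1 group of samples. Depth is unknown, so nothing can be said of binding below the listed regions.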
